A study of Mus musculus with 9 samples.

Results

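The 10 genes described here are 5 core pluripotency genes (Pou5f1, Sox2, Sall4, Lin28a and Utf1) and 5 formative or primed genes (Otx2, Fgf5, Pou3f1, Zic2 and Sall2). They were chosen by symbol from the 48440 genes of the count tables, and all 10 passed the filter on low counts. Polyadenylated RNA came from J1 mouse embryonic stem cells grown on gelatin in medium with 15% serum, leukemia inhibitory factor and the 2i inhibitors, 1 µM PD0325901 (against MEK) and 3 µM CHIR99021 (against GSK3). All 9 libraries have the genotype Suz12-AID, in which the PRC2 (Polycomb repressive complex 2) protein Suz12 carries a degron that auxin targets for destruction. The groups, each of 3 biological replicates, are Mock, Auxin (50 µM auxin for 96 h) and Reintroduction (the same treatment followed by 4.5 h of washout). The labels do not say whether the degron line is a single clone, what Mock cells received, or which auxin receptor the cells carry. No group used here combines auxin with untagged Suz12, so the loss of Suz12 and any other action of auxin cannot be told apart.

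Pou5f1 encodes OCT4, which binds DNA together with SOX2 to keep pluripotency genes active, and SALL4 is a zinc-finger partner of both. LIN28A is an RNA-binding protein that blocks maturation of let-7 microRNAs, and UTF1 is a chromatin protein of undifferentiated cells. When naive cells leave the 2i state they pass through a formative stage, in which OTX2 redirects OCT4 to new enhancers and Fgf5, Pou3f1 (OCT6), Zic2 and Sall2 are commonly used as markers. PRC2 places the repressive mark H3K27me3, mostly at CpG-rich starts of developmental genes.

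Total counts lay between 44341283 and 113931419 per library, and each mate of a read pair was counted. Libraries of a group correlated at 0.989 to 0.995 across genes on the log2 CPM scale (CPM, counts scaled to a common library size), and libraries of different groups at 0.936 to 0.977. Mock libraries stood apart from the rest in how values followed gene length. Over 10177 protein-coding genes, log2 CPM changed by -0.25 to -0.17 per doubling of exon length in Mock, by 0.01 to 0.15 in Auxin, where replicate 2 was lowest, and by 0.08 to 0.10 in Reintroduction. The stem cell identity in the labels was checked on Pou5f1, Nanog, Zfp42, Esrrb and Dppa5a, whose summed level was 3822 to 4035 CPM in Mock, 3839 to 4271 in Auxin and 3146 to 3264 in Reintroduction. In Auxin against Mock 3 of them were called higher and 2 lower (adjusted p under 0.05, edgeR), where 73.2% of all tested genes were called. In Reintroduction against Mock 4 were called lower, where 33.4% of all tested genes were called lower and 68.1% in either direction. Pou5f1 is also 1 of the 10 members. Auxin replicate 2 differed most from its group, and without it 10 members passed in Auxin against Mock, beside 75.9% of all genes tested in that fit, and 7 in Reintroduction against Auxin, beside 54.1%. Scaling by total counts in place of TMM (trimmed mean of M-values) shifted the all-gene median in Auxin against Mock from 0.05 to 0.26 (log2), and the share of calls that were higher from 52.4% to 63.3%. The mRNA of Suz12 does not report on a degron, which acts on protein.

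The members sit on 7 chromosomes of the mm10 build. Pou5f1 lies on chromosome 17 (ENSMUSG00000024406.16, 35506018 to 35510772), Sox2 on chromosome 3 (ENSMUSG00000074637.7, 34650405 to 34652461), Sall4 on chromosome 2 (ENSMUSG00000027547.17, 168748332 to 168767943), Lin28a on chromosome 4 (ENSMUSG00000050966.9, 134003330 to 134018841) and Utf1 on chromosome 7 (ENSMUSG00000047751.9, 139943789 to 139945112). Chromosome 14 holds Otx2 (ENSMUSG00000021848.15, 48657679 to 48667644), Zic2 (ENSMUSG00000061524.8, 122475435 to 122479852) and Sall2 (ENSMUSG00000049532.10, 52311172 to 52328762). Fgf5 is on chromosome 5 (ENSMUSG00000029337.2, 98254184 to 98277030) and Pou3f1 on chromosome 4 (ENSMUSG00000090125.3, 124656807 to 124660655). Exon lengths run from 1227 bp in Utf1 to 5536 bp in Sall4. Sox2 and Pou3f1 have a single exon block each. Pou5f1, Sall4, Lin28a and Pou3f1 each share between 5.86% and 14.1% of their exon sequence with an overlapping noncoding gene (Gm19553, Gm14261, Gm13061 and Gm2164 in that order), and those 4 overlapping genes held at most 0.245 CPM on average in any group. The counting used no strand, so reads of a member and of an overlapping antisense gene cannot be told apart. Apart from these, no GENCODE M21 transcript of another counted gene matched a member's longest transcript at 90% identity or more over 75 bases or more. Transcripts of genes outside the count tables were not included.

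RefSeq start sites of build GRCm38.p6, which has the coordinates of mm10, were matched for 7 of the 10 members (Pou5f1, Sox2, Lin28a, Utf1, Otx2, Fgf5 and Sall2). The 250 bases before the start are shown for the 6 of these that changed most, 5′ to 3′ on the gene's strand, with CpG dinucleotides in capitals, since CpG density is the promoter feature tied to PRC2. The Sox2 window ends 410 bp before the gene start in the count tables. The windows are chr17:35505782-35506031 (+ strand), chr3:34649745-34649994 (+ strand), chr4:134018817-134019066 (- strand), chr7:139943606-139943855 (+ strand), chr14:48667645-48667894 (- strand) and chr5:98253934-98254183 (+ strand).
Pou5f1: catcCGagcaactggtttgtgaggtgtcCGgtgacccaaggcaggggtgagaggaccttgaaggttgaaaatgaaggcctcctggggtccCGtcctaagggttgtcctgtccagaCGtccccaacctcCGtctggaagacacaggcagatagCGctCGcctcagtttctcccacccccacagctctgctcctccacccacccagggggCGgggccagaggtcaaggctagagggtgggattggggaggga
Sox2: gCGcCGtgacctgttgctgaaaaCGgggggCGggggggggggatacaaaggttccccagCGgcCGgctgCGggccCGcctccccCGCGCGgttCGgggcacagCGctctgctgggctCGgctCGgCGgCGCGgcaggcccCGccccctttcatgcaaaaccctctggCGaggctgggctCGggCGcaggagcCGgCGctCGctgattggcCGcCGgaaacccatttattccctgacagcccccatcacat
Lin28a: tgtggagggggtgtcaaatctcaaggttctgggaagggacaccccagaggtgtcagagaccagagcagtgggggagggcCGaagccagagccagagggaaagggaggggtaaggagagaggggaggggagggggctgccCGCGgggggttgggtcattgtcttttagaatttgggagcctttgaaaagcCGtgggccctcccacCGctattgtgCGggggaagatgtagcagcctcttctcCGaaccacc
Utf1: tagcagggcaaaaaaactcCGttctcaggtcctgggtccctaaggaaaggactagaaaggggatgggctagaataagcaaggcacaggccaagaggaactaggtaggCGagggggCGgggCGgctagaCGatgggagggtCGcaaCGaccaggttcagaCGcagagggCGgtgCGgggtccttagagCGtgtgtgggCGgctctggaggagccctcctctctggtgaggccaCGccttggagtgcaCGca
Otx2: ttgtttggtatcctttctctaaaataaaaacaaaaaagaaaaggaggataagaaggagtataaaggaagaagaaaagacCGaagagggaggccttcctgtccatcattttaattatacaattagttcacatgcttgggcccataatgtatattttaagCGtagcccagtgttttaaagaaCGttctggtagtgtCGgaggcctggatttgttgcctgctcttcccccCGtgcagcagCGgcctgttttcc
Fgf5: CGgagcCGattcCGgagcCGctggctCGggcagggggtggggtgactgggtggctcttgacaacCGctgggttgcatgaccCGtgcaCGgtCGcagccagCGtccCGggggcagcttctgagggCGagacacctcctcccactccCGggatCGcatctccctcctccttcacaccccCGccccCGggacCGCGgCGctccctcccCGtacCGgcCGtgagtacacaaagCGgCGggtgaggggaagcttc

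High CpG counts occurred in both sets. Sox2 had 27 CpGs and Fgf5 had 24, counts that 8.6% and 12% of all 32851 windows reached. Utf1 had 14, Pou5f1 8, Lin28a 7, Otx2 6 and Sall2 0, against a median of 6 over all windows. RefSeq listed 4 starts for Otx2 and 2 each for Pou5f1 and Sall2. Only the start nearest the gene start in the count tables was used, so windows at their other starts were not examined. The GC box GGGCGG, searched on both strands and always overlapping a CpG, was found in the windows of Pou5f1, Sox2, Utf1 and Fgf5, and in 32.7% of all windows. Neither the octamer ATGCAAAT, the letters bound by POU proteins (1.6% of all windows), nor the SOX motif CATTGTT (3.29%) occurred on either strand of any of the 7 windows.

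In Mock cells the core genes stood far above the formative genes. Per kilobase of exon, Pou5f1 had 375.3 ± 25.9 CPM per kb (mean ± SD, n = 3 here and below), Sox2 181.9 ± 4.16, Lin28a 116.4 ± 2.05, Utf1 90.1 ± 8.78 and Sall4 35.9 ± 1.24. Below all of them came Zic2 with 7.66 ± 0.363 CPM per kb, Sall2 with 2.83 ± 0.066, Otx2 with 1.77 ± 0.030, Pou3f1 with 0.338 ± 0.070 and Fgf5 with 0.0279 ± 0.015. Each neighbour in that order was separated, the lowest library of the higher gene lying above the highest library of the lower gene. In Auxin the order was Sox2 (364.4 ± 6.05 CPM per kb), Pou5f1 (259.4 ± 21.7), Utf1, Lin28a (32.99 ± 3.26), Sall4 (32.6 ± 2.05), Zic2, Otx2, Sall2, Fgf5 and Pou3f1, and of these neighbours Lin28a and Sall4 overlapped. On this scale Sox2 had thus passed Pou5f1, and Otx2 had passed Sall2. How well CPM per kb compares the levels of different genes was not tested. In Reintroduction Pou5f1 (257 ± 12.1 CPM per kb) was again above Sox2 (219.8 ± 2.93), Utf1 (89.9 ± 5.14) stayed above Lin28a (66.8 ± 3.57), and Otx2 (13.3 ± 0.472) stayed above Sall2 (3.12 ± 0.186).

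**Figure D1:**
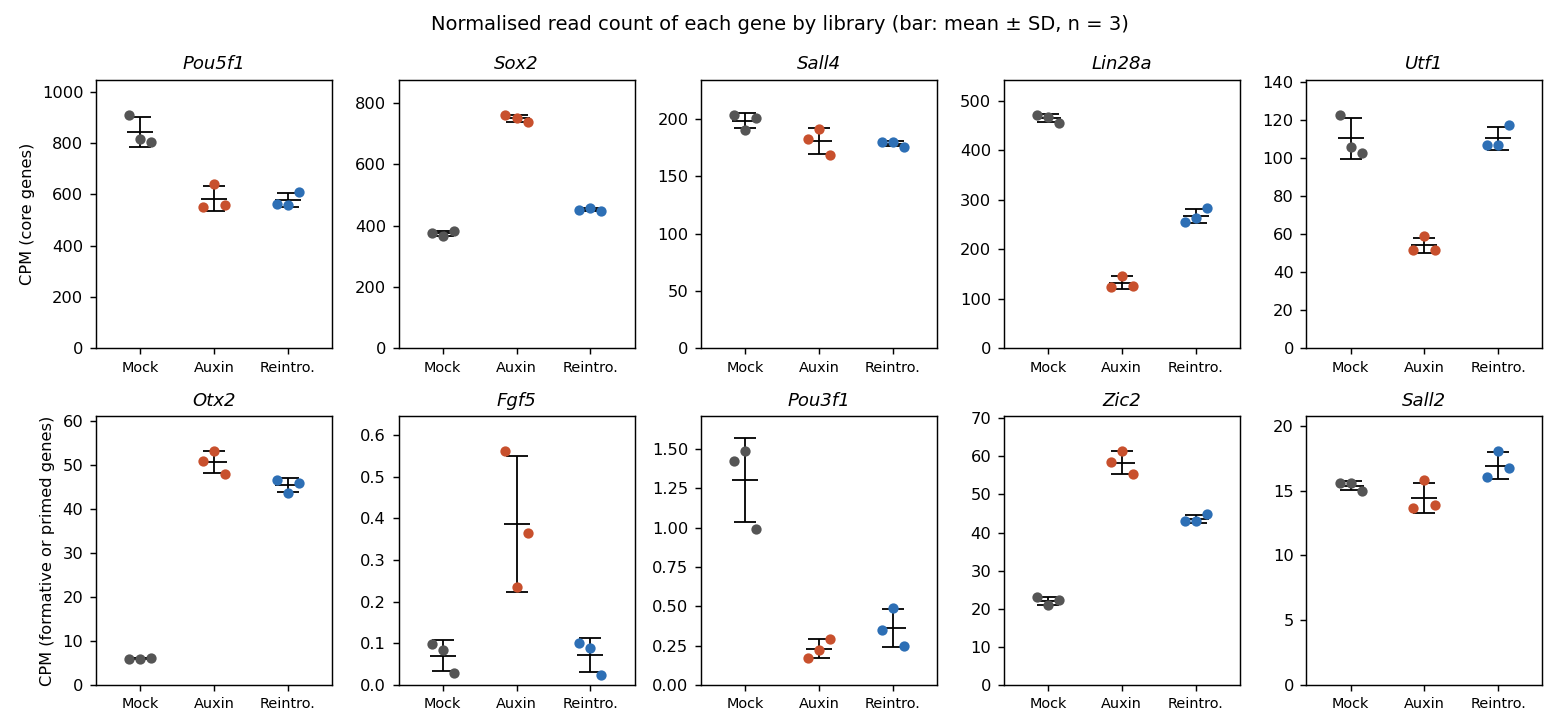
Normalised read count (CPM, linear axis from 0, TMM-scaled) of the 10 genes in each of the 9 libraries, with points for libraries and bars for mean ± SD (n = 3). Otx2 is at 45.3 CPM in Reintroduction and 50.6 CPM in Auxin, against 5.999 CPM in Mock, and Lin28a at 266.9 CPM lies between its Auxin and Mock levels.

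The comparison of Auxin with Mock asks what differs after 96 h of auxin in cells whose Suz12 carries the degron. Suz12 protein was not measured in these files. Among the core genes Lin28a, Utf1, Pou5f1 and, slightly, Sall4 fell, and Sox2 rose. Among the formative genes Otx2, Zic2 and Fgf5 rose, Pou3f1 fell, and Sall2 did not pass the test. In all, 9 of the 10 members passed an adjusted p-value of 0.05 (edgeR quasi-likelihood test), 4 higher and 5 lower, where 73.2% of the 20838 tested genes did so, 38.4% higher and 34.8% lower. With at least 2-fold also required 7 members remained, beside 31.8% of genes, and for 8 members the libraries of the groups did not overlap, beside 74.3%. A count of 9 in 10 is therefore close to the background and says little about the members, so their sizes are given below. The core genes had a median log2 fold change of -0.53 and the formative genes one of 1.40, against 0.05 for all tested genes. In bulk RNA, a change in the share of cells that express a gene and a change per cell cannot be told apart.

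Lin28a, the let-7 antagonist, fell most among the core genes. Its level was 472, 467.6 and 456.2 CPM in Mock replicates 1 to 3 and 122.9, 146.8 and 125.8 CPM in Auxin. The groups were wide apart, and the highest Auxin library lay below the lowest Mock library. The log2 fold change was -1.82 (SE 0.073, adjusted p = 2.72e-09), a 3.53-fold fall, and 661 of the tested genes fell further.

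Utf1 had 122.8, 106 and 102.8 CPM in Mock and 51.7, 58.8 and 51.6 CPM in Auxin. Its groups did not overlap, and its log2 fold change was -1.03 (SE 0.081, adjusted p = 4.43e-07). Utf1 is the shortest member, and in the tenth of protein-coding genes with the shortest exons (204 to 1714 bp) the median log2 fold change was -0.52. With the length and GC trends of each library removed, the fall of Utf1 was -0.50 and still passed.

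Pou5f1 had 910.8, 814.7 and 805.5 CPM in Mock against 551, 639.2 and 558.9 CPM in Auxin. All 3 Auxin libraries were below all 3 Mock libraries, with a change in log2 CPM of -0.53 (SE 0.074, adjusted p = 5.24e-05), or 1.45-fold. The fall shrank to -0.34 with the length trend removed and to -0.24 with length and GC trends removed, and passed in both. Genes of 1716 to 2398 bp, the length class of Pou5f1, had a median of -0.26 in this comparison.

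Sall4 moved least of the core genes. Its Mock libraries had 203.9, 191 and 201.4 CPM and its Auxin libraries 182.3, 191.3 and 168.7 CPM, so that the groups overlapped. The log2 fold change of -0.14 (SE 0.056, adjusted p = 0.0457) lost its call in 10 of 17 alternative settings, in one of which, total-count scaling, it turned to 0.07. It was larger, and called, with the length trend removed (-0.34) and with length and GC trends removed (-0.26). Of the fits without 1 library, the call was lost without Auxin replicate 1 (-0.15), Auxin replicate 3 (-0.09), Mock replicate 1 (-0.13) or Mock replicate 3 (-0.14).

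Sox2 moved against the other core genes. It had 375.9, 364.9 and 381.7 CPM in Mock and 761.4, 750.7 and 736.6 CPM in Auxin. The spread inside each group was small beside the gap, and the log2 fold change was 1.00 (SE 0.047, adjusted p = 8.00e-09), a 2.00-fold rise. Its length class had a median change below 0, and with length and GC trends removed the rise of Sox2 was 1.25.

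Otx2, which encodes the homeodomain factor of the naive-to-formative switch, had the largest rise of the 10. It was at 5.97, 5.92 and 6.11 CPM in Mock and at 50.9, 53.0 and 47.9 CPM in Auxin. The log2 fold change was 3.08 (SE 0.062, adjusted p = 7.13e-11), or 8.43-fold, and 505 of the 20838 tested genes rose more. Its value ranged from 3.04 to 3.29 over 17 alternative settings.

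Zic2, a zinc-finger factor of epiblast and neural plate, had 23.0, 20.9 and 22.3 CPM in Mock and rose to 58.5, 61.3 and 55.3 CPM in Auxin. The groups did not overlap and the log2 fold change was 1.40 (SE 0.060, adjusted p = 3.79e-09).

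Fgf5, the classical epiblast ligand gene, was very low in every group. Its raw counts were 10, 7 and 2 in Mock and 46, 18 and 25 in Auxin, which is 0.0699 ± 0.037 against 0.387 ± 0.16 CPM. Every Auxin library exceeded every Mock library, and the log2 fold change was 2.39 (SE 0.51, adjusted p = 1.36e-03). Mates of a pair were counted separately, so the fragments behind these counts are fewer. Even at its Auxin level, Fgf5 stood at 0.155 ± 0.065 CPM per kb, below 8 of the other members.

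Pou3f1, which encodes the POU factor OCT6, went the opposite way. It had raw counts of 147, 123 and 71 in Mock and 14, 17 and 20 in Auxin, or 1.30 ± 0.27 against 0.229 ± 0.061 CPM. No library overlapped, and the log2 fold change was -2.52 (SE 0.29, adjusted p = 1.09e-05), with 265 genes falling further. Sall2, a zinc-finger relative of Sall4, had 15.6, 15.6 and 15.0 CPM in Mock and 13.7, 15.8 and 13.9 CPM in Auxin. Its log2 fold change of -0.09 (SE 0.072, adjusted p = 0.274) did not pass. It was called in 4 of 17 alternative settings, at -0.28 with the length trend removed, at -0.21 with length and GC trends removed, at -0.22 with the replicate block added to that, and at -0.17 without Auxin replicate 2, and it turned to 0.12 under total counts.

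**Figure D2:**
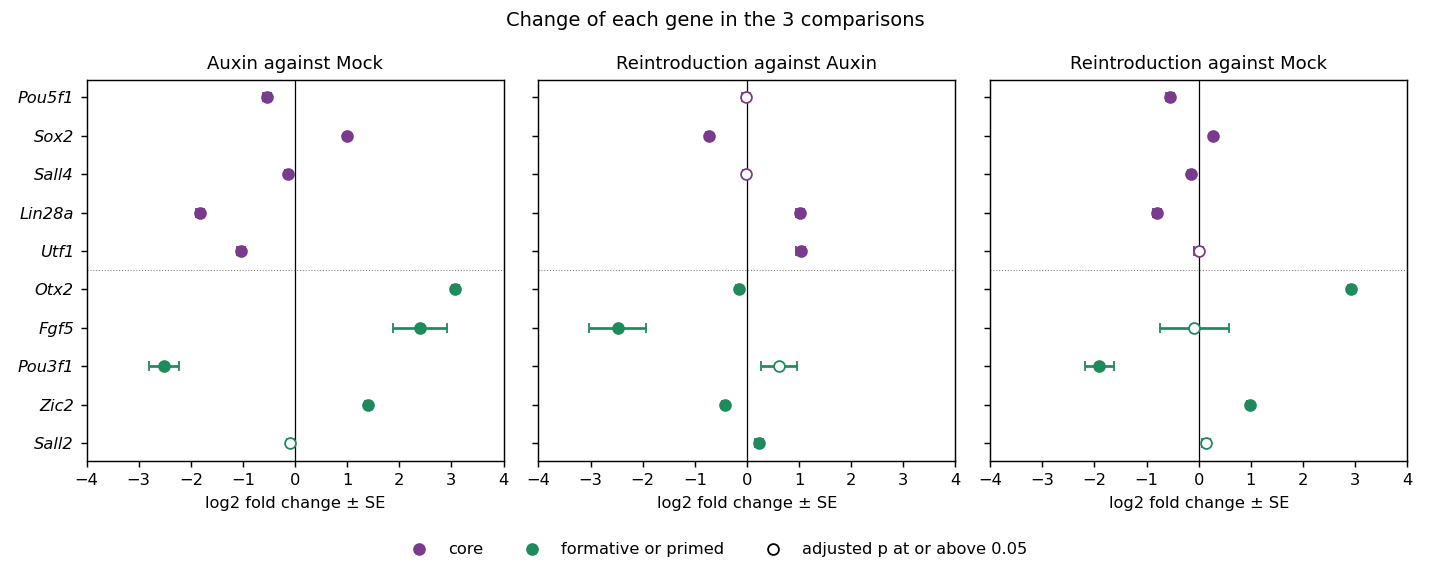
Log2 fold change ± SE (edgeR) of each gene in the 3 comparisons, core genes above the dotted line and formative or primed genes below, open symbols for an adjusted p-value at or above 0.05. Otx2 is near 3 in both comparisons with Mock (3.08 and 2.92), and Lin28a goes from -1.82 to -0.80.

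Otx2 is also expressed in visceral endoderm, a derivative of primitive endoderm. All 7 primitive endoderm markers (Gata6, Gata4, Sox17, Sox7, Pdgfra, Dab2 and Foxa2) were called higher in Auxin than in Mock, beside 38.4% of all tested genes. Their summed level was 6 to 7.47 CPM in Mock, 22.8 to 23.6 CPM in Auxin and 14.2 to 15.99 CPM in Reintroduction. Gata6 and Sox17 stayed below 1 CPM in all groups, and no marker of this list was at 0. Of the 7 markers, 6 were called lower in Reintroduction against Auxin, beside 25.5% of all tested genes. Dab2 and Gata4 made up most of the Reintroduction sum, with 8.58 and 3.57 CPM on average. Against Mock, Gata4, Sox7 and Dab2 were still called higher in Reintroduction. Gata6 was called lower (0.086 ± 0.043 against 0.167 ± 0.022 CPM), and Sox17, Pdgfra and Foxa2 did not pass. The part of these markers in the rise of Otx2 was not tested. Sox2 and Zic2 are also neural genes, and neurectoderm markers summed to 18.8 to 19.7 CPM in Mock, 14.1 to 14.3 in Auxin and 17.3 to 18.6 in Reintroduction, with Neurog2 at 0 counts in all 9 libraries and Pax6 below 1 CPM. Primitive streak markers summed to 47.4 to 49.0 CPM in Mock, 25.7 to 28.4 in Auxin and 68.5 to 71.1 in Reintroduction, with Mesp1 and Tbx6 below 1 CPM in all groups. Eomes made up most of that sum, with 35.4, 25.6 and 66.9 CPM on average, and other markers of the list went another way. The streak marker T had 9.82 ± 0.31, 0.255 ± 0.13 and 1.36 ± 0.16 CPM and Mixl1 2.22 ± 0.26, 0.383 ± 0.10 and 0.545 ± 0.19 CPM, both called lower than Mock in Auxin and in Reintroduction. Trophoblast markers, led by Tfap2c, summed to 28.1 to 29.9, 83.0 to 91.8 and 43.8 to 48.6 CPM in that order of groups, with Elf5, Hand1 and Gata3 below 1 CPM in all groups. Of the 4 tested, Tfap2c, Hand1 and Gata3 were called higher than Mock in Auxin and in Reintroduction, beside 38.4% and 34.7% of all tested genes. Against these Cdx2 was called lower than Mock in both other groups, with 1.70 ± 0.26, 0.0825 ± 0.12 and 0.784 ± 0.14 CPM. Fibroblast markers summed to 17.8 to 19.96, 39.0 to 46.4 and 37.4 to 38.8 CPM, with Col1a1, Col1a2, Col3a1 and Postn below 1 CPM. Thy1 made up nearly all of that sum, with 17.9, 41.2 and 37.5 CPM on average. Col1a1 was called lower than Mock in both other groups, with 0.418 ± 0.060, 0.152 ± 0.033 and 0.251 ± 0.016 CPM. The part of these lists in the results was not tested.

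The comparison of Reintroduction with Auxin asks what moves within 4.5 h of auxin washout. Lin28a and Utf1 rose, Sox2, Zic2 and Fgf5 fell, and Otx2 and Sall2 changed slightly. Pou5f1, Sall4 and Pou3f1 did not pass the test. In all 7 of 10 members passed, 3 higher and 4 lower, beside 50.9% of all tested genes (25.5% higher and 25.5% lower). The groups did not overlap for 7 members, beside 58.2% of genes. With a change of at least 2-fold also required, 3 members remained (Lin28a, Utf1 and Fgf5), beside 11% of tested genes. The medians were -0.01 for the core genes, -0.16 for the formative genes and 0.003 for all tested genes. This comparison shares its Auxin libraries with the one above.

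Lin28a had 255, 263 and 282.8 CPM in Reintroduction replicates 1 to 3, against its 122.9 to 146.8 CPM in Auxin. Its log2 fold change was 1.02 (SE 0.072, adjusted p = 7.87e-07), and 976 of the tested genes rose more. Utf1 had 106.7, 106.7 and 117.6 CPM in Reintroduction, all far above the highest Auxin library at 58.8 CPM. The change of 1.03 (SE 0.081, adjusted p = 1.75e-06) was the size of its fall under auxin with TMM scaling. Over 17 alternative settings this rise stayed between 0.89 and 1.08, whereas the fall of Utf1 was -0.50 with length and GC trends removed. Lin28a and Utf1 are the 2 members of the core set that had fallen by at least 2-fold in Auxin.

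Sox2 had 450.7, 458.7 and 446.9 CPM in Reintroduction and fell by 0.73 in log2 CPM (SE 0.047, adjusted p = 3.91e-07). Its Reintroduction libraries lay between those of Mock and those of Auxin, with no overlap on either side. Pou5f1 had 564.3, 559.8 and 609.1 CPM, inside the range of the Auxin libraries, and its difference was -0.01 (SE 0.074, adjusted p = 0.901). Sall4 had 179.9, 179.9 and 176.1 CPM and a difference of -0.02 (SE 0.056, adjusted p = 0.824). With length and GC trends removed, Sall4 was called higher at 0.13.

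Otx2 had 46.6, 43.5 and 45.8 CPM in Reintroduction, just under the 47.9 CPM of the lowest Auxin library. Its log2 fold change was -0.16 (SE 0.055, adjusted p = 0.0333), and the call was lost in 8 of 17 alternatives, among them the fits without Auxin replicate 1, Reintroduction replicate 2 or Reintroduction replicate 3 (-0.17, -0.13 and -0.18). Zic2 had 43.0, 43.0 and 44.8 CPM, clearly below its Auxin libraries, and fell by 0.42 in log2 CPM (SE 0.058, adjusted p = 1.24e-04). Fgf5 had raw counts of 8, 4 and 2, no more than in Mock, and a log2 change of -2.48 (SE 0.55, adjusted p = 2.98e-03).

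Pou3f1 had raw counts of 28, 22 and 20 in Reintroduction, or 0.362 ± 0.12 CPM, a range that overlapped that of Auxin. Its log2 difference of 0.62 (SE 0.34, adjusted p = 0.153) did not pass. Sall2 had 16.1, 18.04 and 16.7 CPM and a change of 0.23 (SE 0.073, adjusted p = 0.0219). That call was lost without Auxin replicate 1 (0.18), Auxin replicate 3 (0.20), Reintroduction replicate 2 (0.19) or Reintroduction replicate 3 (0.23), and under total counts (0.15). With length and GC trends removed Sall2 was called at 0.37. The mitochondrial share of counts was 4.58% to 4.80% in Reintroduction and 3.79% to 3.999% in the other groups, and its part in these differences was not tested.

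The comparison of Reintroduction with Mock asks what still differs after the washout, and it shares libraries with both comparisons above. Otx2, Zic2 and Sox2 were higher than in Mock. Pou3f1, Lin28a, Pou5f1 and Sall4 were lower. Utf1, Fgf5 and Sall2 did not pass. The 7 members called, 3 higher and 4 lower, stand beside 68.1% of all tested genes (34.7% higher and 33.4% lower). The groups did not overlap for 8 members, beside 75.2% of genes, and only Otx2 and Pou3f1 differed by 2-fold or more and were called, beside 22.4% of tested genes. The medians were -0.15 for the core genes, 0.14 for the formative genes and 0.03 for all tested genes.

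Otx2 kept most of its rise. The log2 fold change of 2.92 (SE 0.061, adjusted p = 5.41e-10), or 7.56-fold, was exceeded by 247 of the 20838 tested genes, and in Auxin against Mock its value had been 3.08. Zic2 stood 0.98 above Mock (SE 0.059, adjusted p = 1.38e-07), after 1.40 in Auxin. Sox2 remained higher by 0.27 (SE 0.047, adjusted p = 3.30e-04), after 1.00 in Auxin. With length and GC trends removed, Sox2 was higher by 0.55.

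Pou3f1 stayed lower by a log2 change of -1.91 (SE 0.28, adjusted p = 1.05e-04), its 3 Reintroduction libraries at 0.490 CPM or less and its Mock libraries at 0.993 CPM or more. Lin28a remained lower at -0.80 (SE 0.071, adjusted p = 2.39e-06), a 1.74-fold difference. Pou5f1 remained lower at -0.55 (SE 0.074, adjusted p = 5.97e-05), which is its difference in Auxin (-0.53) to within the error. With length and GC trends removed, the value for Pou5f1 was -0.21 and still passed. Sall4 was lower at -0.15 (SE 0.056, adjusted p = 0.0301), and under total counts the value of -0.02 did not pass. With the length trend removed Sall4 was called at -0.31. In all, Sall4 lost its call in 4 of 17 alternative settings. Besides total counts these were the replicate block, no low-count filter, and the fit without Reintroduction replicate 2 (-0.16).

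Utf1 was within error of Mock. Its difference was -0.0025 (SE 0.080, adjusted p = 0.98), with 110.3 ± 6.30 CPM in Reintroduction and 110.5 ± 10.8 CPM in Mock. This depended on the treatment of gene length, because Utf1 was called higher at 0.32 with the length trend removed and at 0.39 with length and GC trends removed. Fgf5 had 14 counts in all of Reintroduction and 19 in all of Mock, and its difference of -0.08 (SE 0.67, adjusted p = 0.918) has an error too wide to place it. Sall2 differed by 0.14 (SE 0.072, adjusted p = 0.113) although its 3 Reintroduction libraries lay above its 3 Mock libraries. It was called higher in 5 of 17 alternative settings, among them total counts (0.27) and length and GC trends removed. With only the length trend removed it was -0.01 and did not pass.

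**Figure D3:**
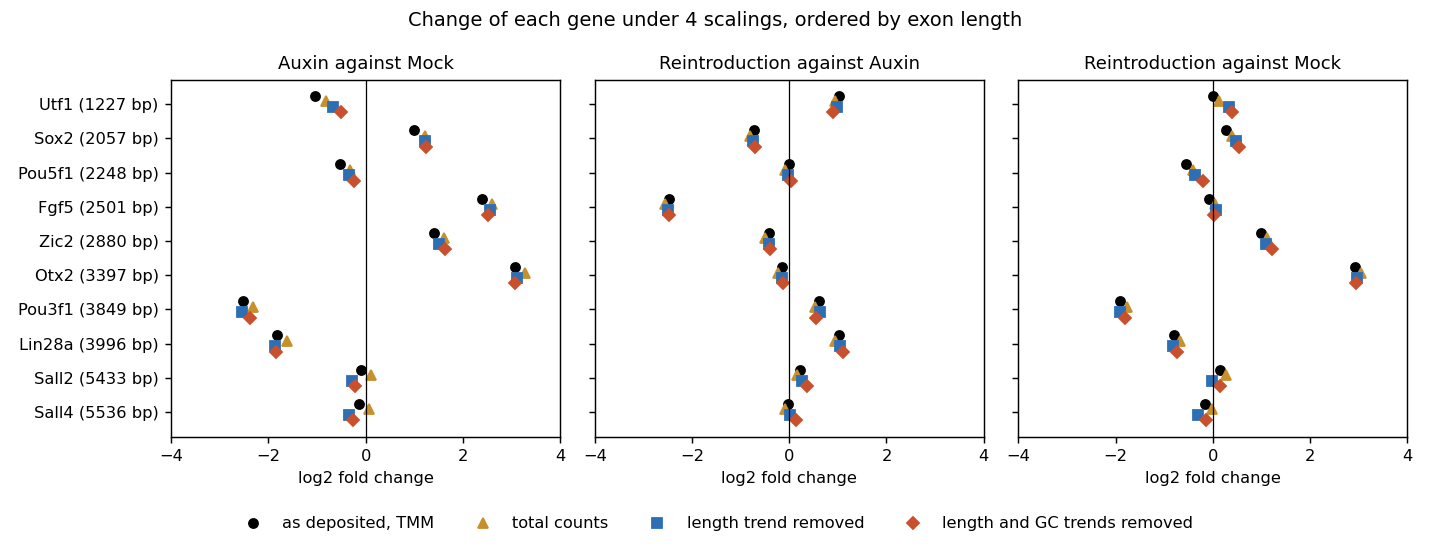
Log2 fold change of the 10 genes, ordered by exon length, under TMM scaling, total counts, removal of the length trend, and removal of length and GC trends. Utf1, the shortest gene, moves from -1.03 to -0.50 in Auxin against Mock, while Otx2 stays between 3.07 and 3.29.

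Other genes of the pluripotency network were read from lists that were chosen with earlier results of these data known. The lists include paralogs of the members and genes of let-7 processing. Their share called in Auxin against Mock ran from 56.25% (paralogs) to 87.5% (naive genes), beside 73.2% of all tested genes. Between Reintroduction and Auxin it ran from 42.86% (let-7 processing) to 100% (naive genes), beside 50.9%. Between Reintroduction and Mock it ran from 56.25% (paralogs) to 100% (let-7 processing), beside 68.1%. The counts of calls below are to be read beside these shares. Of 16 naive pluripotency genes, 11 were called higher and 3 lower in Auxin against Mock, with a median log2 fold change of 0.29. Prdm14, a repressor of epiblast genes, rose by 1.68 (SE 0.067) and Klf5, a Krüppel-like factor of the naive network, by 1.61 (SE 0.061). Gbx2, a homeobox target of STAT3, fell by 2.65 (SE 0.084) and Dppa5a, an RNA-binding protein of stem cells, fell by 1.16 (SE 0.098), a value that was -0.67 with length and GC trends removed and still passed. In Reintroduction against Auxin 4 naive genes were higher and 12 lower (median -0.37), and against Mock 6 were higher and 6 lower (median -0.04).

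Of 15 other shared pluripotency genes, in Auxin against Mock 6 were higher and 5 lower (median 0.03). Esrp1, an epithelial splicing regulator, rose by 3.71 (SE 0.063), from 5.45 ± 0.19 to 71.4 ± 3.26 CPM. L1td1, an RNA-binding protein that associates with LIN28, fell by 1.65 (SE 0.11), the direction of Lin28a, and rose by 1.18 (SE 0.10) in Reintroduction against Auxin. Gdf3, a ligand of the TGF-beta family, fell by 0.77 (SE 0.060) and then rose by 0.54 (SE 0.060). In Reintroduction against Auxin 5 of these genes were higher and 7 lower, and against Mock 5 were higher and 5 lower.

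Among 16 other formative or primed genes, 3 were called higher and 8 lower in Auxin against Mock, with a median of -0.34. Nodal, the ligand that sustains the epiblast, rose by 0.64 (SE 0.063) and Cdh2, which encodes N-cadherin, by 0.37 (SE 0.11), a value that turned to -0.03 with the length trend removed. Sox3, the SoxB1 partner of Sox2, fell by 2.36 (SE 0.21) and the ligand gene Fgf15 fell by 2.35 (SE 0.25). In Reintroduction against Auxin 6 were higher and 3 lower (median 0.46), with Dnmt3b, the de novo DNA methyltransferase, up by 1.2 (SE 0.055) and Sox11 up by 1.195 (SE 0.077). Against Mock 6 were higher and 6 lower. Sox3 was then 3.23 below Mock on the log2 scale (log2 fold change -3.23, SE 0.23).

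Of 18 paralogs of the members, Pou3f2 and Zic4 were too low to test, and 4 of the remaining 16 were called higher and 5 lower in Auxin against Mock. Sall1 rose by 1.04 (SE 0.051) beside values of -0.14 for Sall4 and -0.09 for Sall2, and Otx1 rose by 1.14 (SE 0.23) from 0.355 ± 0.094 CPM, beside Otx2. Sox15 fell by 2.63 (SE 0.14) beside Sox3, opposite to Sox2. Of the paralogs 7 were higher and 3 lower in Reintroduction against Auxin, and against Mock 5 were higher and 4 lower. Some paralogs (Sox3, Fgf8, Fgf15, Zic5 and Fgf4) also stand in the lists above.

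Among the 7 listed genes of let-7 processing, Tut4 and Tut7, the terminal uridylyltransferases that LIN28 recruits, rose by 1.117 (SE 0.18) and 0.88 (SE 0.13) in Auxin against Mock. Drosha, the nuclear microRNA processing enzyme, fell by 0.62 (SE 0.056), and 4 of the list were higher and 1 lower in all. In Reintroduction against Auxin 3 were higher and 0 lower at the threshold (edgeR). Lin28b, the paralog of Lin28a, rose by 0.65 (SE 0.090) in that comparison. Against Mock 6 were higher, 1 was lower, and the median was 0.56. With length and GC trends removed, the rise of Tut4 in Auxin against Mock was 0.58 and still passed. Under total counts the fall of Drosha was -0.41 and still passed.

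**Figure D4:**
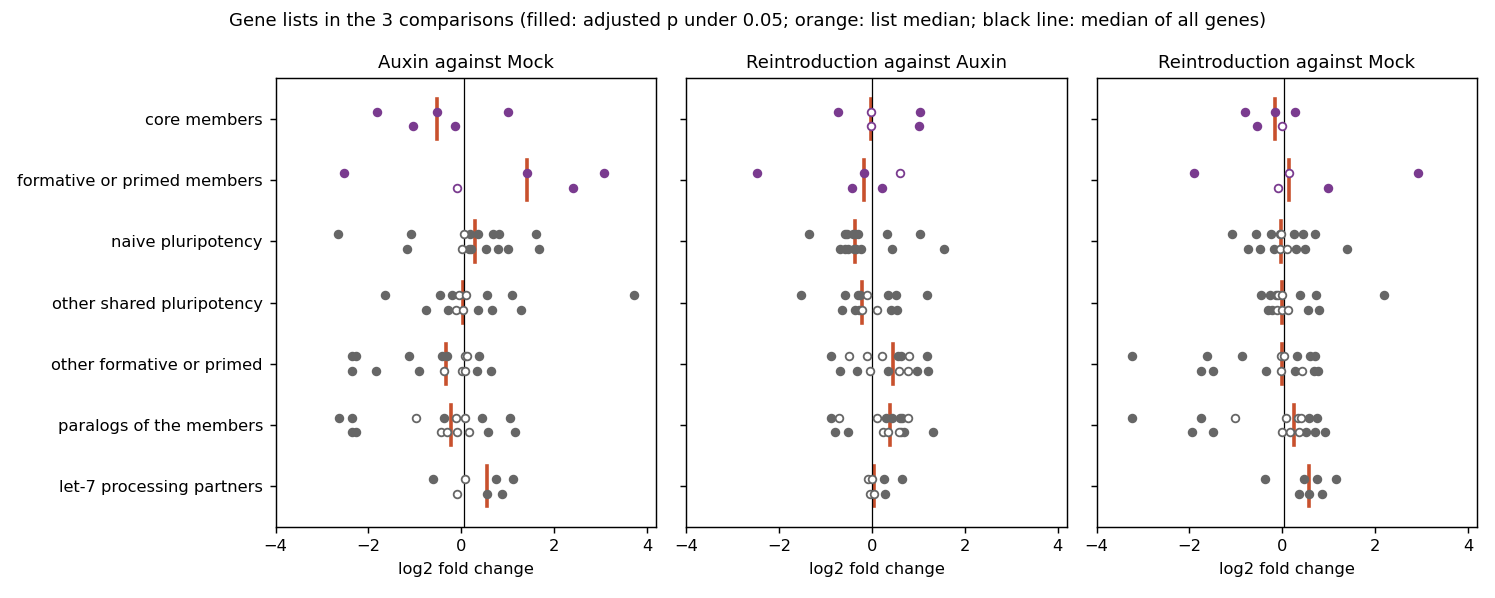
Log2 fold change of each tested gene in the 2 sets of members and 5 other lists, filled where the adjusted p-value is under 0.05, with list medians in orange and a black line at the all-gene median. In Auxin against Mock the formative members have a median of 1.40 and the 16 other formative or primed genes one of -0.34.

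The gene whose log2 CPM over the 9 libraries was most like that of Otx2 was B4galt4 (Pearson r = 0.999 over 9 libraries), which in Mock, Auxin and Reintroduction stood at 3.38 ± 0.11, 13.97 ± 0.29 and 13.6 ± 0.29 CPM. For Sox2 it was Atp6ap2 (r = 0.999), with 81.0 ± 1.30, 154.8 ± 3.18 and 98.3 ± 1.47 CPM in the same order. Zic2 was most like St14 (r = 0.998), Sall4 like Zc3h12a (r = 0.974), Sall2 like Minpp1 (r = 0.962) and Fgf5 like Tmem179 (r = 0.962). Pou5f1, Lin28a, Utf1 and Pou3f1 were each most like a processed pseudogene, namely Gm5835, Cct3-ps1, Gm9761 and Gm7416 (r = 0.998, 0.999, 0.996 and 0.982). Counts of a processed pseudogene can include reads of its parent gene, so these 4 are uncertain. Such likeness is common with 3 groups: Otx2 reached r of at least 0.9 with 1685 of the 10950 genes compared, and Lin28a with 2056 of 10951. The points share library, depth and length trend, so these values are a description.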

How the data were processed

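Messenger RNA was measured by paired-end sequencing (75 bp) in 9 libraries of Suz12-AID mouse embryonic stem cells, grouped by treatment as the labels give it. The deposited values are raw counts per gene, made by the authors with featureCounts 2.0.6 over exons of an mm10 annotation without strand, per the file headers. The headers show paired mode without the option that counts pairs once, so mates were counted separately, and raw counts overstate the number of fragments. Trim Galore 0.6.10, FastQC 0.12.1, Bowtie2 2.5.3 and SAMtools 1.20 are named in the submitters' processing notes, with no role or order.

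Gene identifiers were mapped to symbols for 48058 of 48440 genes. Counts of all 9 libraries were fitted together with edgeR 4.0.16 (R 4.3.3; filterByExpr, TMM scaling, quasi-likelihood test, two-sided), and p-values were adjusted by Benjamini-Hochberg over 20838 genes. The threshold for a call was an adjusted p of 0.05. The SE is the log2 fold change divided by the square root of F. CPM used TMM-scaled library sizes, and CPM per kb divided by exon length. Alternatives were DESeq2 1.42.0, total counts, other filters, halved counts, 2 groups only, a replicate block, left-out libraries, and a spline with 4 degrees of freedom on log2 exon length, or on length and GC, removed per library. The fit was tested on simulated data.

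The members and gene lists were chosen with earlier results of these data known. All 10 members are named. From each list the text names up to 2 called genes with the largest rise and 2 with the largest fall per comparison, and for each member the gene with the highest Pearson r, its overlapping genes and its nearest protein-coding gene.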

Additional observations from a re-analysis of the deposited data

How the results depend on the processing

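Requiring a change of at least 2-fold lowered the members called from 7 to 3 in Reintroduction against Auxin and from 7 to 2 in Reintroduction against Mock, and the genes called to 6625, 2289 and 4664 in Auxin against Mock, Reintroduction against Auxin and Reintroduction against Mock. Leaving out 1 library gave 8 to 10, 5 to 7 and 6 to 7 members in the same order, beside 67.7% to 75.9%, 42.7% to 54.1% and 61.3% to 63.0% of all genes tested in those fits. In Auxin against Mock, total counts turned Sall4 to 0.073 and Sall2 to 0.12, and removing the length trend turned Cdh2 to -0.026. In Reintroduction against Auxin, Pou5f1 turned to 0.035 with length and GC trends removed, and its values ran from -0.064 to 0.042 with 1 library left out. Sall4 turned to 0.024 with the length trend removed and to 0.13 with length and GC trends removed, and ran from -0.064 to 0.0096 with 1 library left out. In Reintroduction against Mock, Utf1 was 0.019 with the 1 CPM filter, 0.0039 with halved counts, 0.00017 without a filter, 0.0061 with 2 groups fitted, 0.13 under total counts, 0.32 with the length trend removed and 0.39 with length and GC trends removed, and -0.076 to 0.055 with 1 library left out. Fgf5 was 0.048 under total counts, 0.070 with the length trend removed and 0.031 with length and GC trends removed, and -0.57 to 0.37 with 1 library left out. Sall2 was -0.013 with the length trend removed. The cause of these changes was not tested. Fgf5 and Pou3f1 are limited by depth, and neither was tested under the 1 CPM filter, nor Fgf5 with halved counts.

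Libraries with the same replicate number in the labels were not clearly alike across groups. Same-numbered deviations from the group means correlated at -0.55, -0.51 and 0.45 between Mock and Auxin. Between Mock and Reintroduction the values were 0.08, 0.20 and -0.17, and between Auxin and Reintroduction -0.05, -0.15 and -0.31. With 3 libraries a group, these values cannot decide whether the samples were paired. With the replicate block, 8, 6 and 6 members and 14808, 9829 and 13639 genes were called, or 71.1%, 47.2% and 65.5% of all tested genes. With the replicate block and length and GC trends removed, 10, 7 and 9 members and 15304, 10947 and 13488 genes were called. Those genes were 73.4%, 52.5% and 64.7% of all tested genes. In that fit Pou5f1 was 0.035 and Sall4 0.13 in Reintroduction against Auxin, and Utf1 was 0.39 and Fgf5 0.038 in Reintroduction against Mock.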

Other observations

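Tmem260, the nearest protein-coding gene to Otx2 at a distance of 142544 bp, rose by 2.23 in log2 CPM (SE 0.081, adjusted p = 1.31e-09, edgeR) in Auxin against Mock, from 2.36 ± 0.12 to 11.1 ± 0.59 CPM (SD, n = 3). In Reintroduction it was at 5.51 ± 0.13 CPM, a change of -1.01 (SE 0.077) against Auxin, where Otx2 changed by -0.16. Tcf19, 1962 bp from Pou5f1, had 13.1 ± 0.67 CPM in Mock, 5.22 ± 0.67 in Auxin and 6.27 ± 0.15 in Reintroduction, with a log2 fold change of -1.33 (SE 0.092) in Auxin against Mock.

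Zic5, 9758 bp from Zic2, did not pass in Auxin against Mock (0.09, SE 0.084, adjusted p = 0.361, edgeR), where Zic2 rose by 1.40. It rose by 0.63 (SE 0.084) in Reintroduction against Auxin, where Zic2 fell by 0.42. Kndc1 next to Utf1, Utp11 next to Pou3f1 and Mettl3 next to Sall2 did not pass in Auxin against Mock (0.17, -0.07 and 0.08), Atp9a next to Sall4 rose by 0.48, and Dhdds next to Lin28a and Dnajc19, 569084 bp from Sox2, had -0.26 and -0.44. Cfap299, the gene nearest to Fgf5, had 1, 0 and 3 counts in all of Mock, Auxin and Reintroduction and was not tested.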
